A study of Rattus norvegicus with 24 samples.

Results

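The proteasome is the barrel-shaped protease that destroys proteins marked with ubiquitin chains. Its core, the 20S particle, stacks rings of alpha subunits, which gate the entry, around rings of beta subunits, which hold the proteolytic sites. The 19S regulatory particle caps the core, binds the ubiquitin chain, removes it and threads the substrate inward with a ring of ATPases. Ubiquilins and the p97 ATPase (Vcp) with its cofactors are shuttles and unfoldases that bring marked proteins to this machine, and in neurons this route is known for its part in synaptic protein turnover.

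The genes described here are those of the proteasome and of these shuttles, taken from the annotation of a rat whole-transcript array by symbol: every gene named Psma to Psmg with a number, together with Ubqln1, Ubqln2, Vcp, Nsfl1c, Ufd1l and Nploc4. Where a symbol had more than 1 transcript cluster (the array's unit for a gene), the cluster was selected on the highest mean signal over all arrays, so a high level is built into the set and carries no test. The rule gave 57 symbols on 56 of the 68842 clusters, because Psma3 and Psma3l share a cluster. In addition, the set was chosen with the SRvsCT differences of Nsfl1c and Ubqln1 already known, so those calls are a starting point of the description and not independent support for it.

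The arrays measured RNA from the nucleus accumbens (NAc) of male Sprague Dawley rats, 1 rat per array, about a month after the last self-administration session. Drug seeking had been tested with cues but no drug, early in withdrawal and again about a month in. Tissue was taken 1 day after the later cue test. The paper reports fewer lever presses in the SS than in the SR group at each test, and the part of these tests in the differences was not tested. Control rats (CT, n = 6) had self-administered saline and received no shocks. Shock-resistant (SR, n = 6) and shock-sensitive (SS, n = 6) rats had all self-administered methamphetamine (METH) and had then been punished with footshocks on part of their rewarded lever presses, and they were separated afterwards by whether they kept taking the drug or cut their intake. Rats yoked to SR (YSR, n = 3) or to SS animals (YSS, n = 3) took saline and received the shocks of a METH rat without control over them. The paper reports that YSR rats received significantly more shocks than YSS rats. No group took METH without shocks, so drug and shock cannot be told apart within SR or SS, and the labels give no ages. The labels of CT, SR and SS carry a mark, (2), that the yoked labels lack and that is not explained in the sources used here.

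The signal filter kept clusters whose mean in the CT arrays was above that of the bacterial spike-in bioB, a log2 signal of 9.45, which passed 9044 clusters and 32 of the 56 members. Array medians over all clusters ranged from 4.87 (SR replicate 5) to 5.22 (CT replicate 3), and the number of arrays, not a read depth, limits the precision. All 11 markers of medium spiny neurons, the main neurons of the NAc, passed the filter, as did 5 of 6 oligodendrocyte, 3 of 6 astrocyte, 3 of 7 microglial and 3 of 6 cortical glutamatergic markers. The interferon response list had 1 of 9 genes above the filter, and the endothelial, blood and choroid plexus lists had none, although the summed choroid plexus level reached 15.9 in 1 SS array against a median of 7.17 in that group. In whole tissue, fewer cells of a type and less RNA per cell cannot be told apart.

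Promoter sequence is shown first, for the called members and for 4 others picked by motif and by their SRvsCT p in these same data. The antioxidant response element core TGACNNNGC is bound by Cap'n'collar factors such as Nfe2l1, which in mice and human cells is known to drive proteasome genes, and CCAAT is a common promoter box bound by NF-Y. RefSeq promoters (assembly GRCr8) were matched for 48 member clusters and searched on both strands in the 250 bases before the start. TGACNNNGC was found in 8 of these 48 (16.7%) and in 10.7% of 19005 protein-coding promoters, and CCAAT in 23 of 48 (47.9%) against 35.5%. The 8 were those of Psma3, Psmb2, Psmb5, Psmb6, Psmd1, Psmd9, Psme4 and Vcp, and the motifs overlapped in 1 member promoter. The 4 windows of 60 bases printed below belong to the 4 of these 8 that had an unadjusted p under 0.05 in SRvsCT, followed by those of Nsfl1c and Ubqln1, the called members, which had no TGACNNNGC in that stretch. Psmb2, Psmb6, Psmd9 and Psme4 carried the motif without such a p. Psmd2, Psmc1, Psmc2 and Psmd7, among others, had such a p without the motif. A link between motif and difference was not tested. Each runs 5′ to 3′ on the strand of its gene, and capitals mark the match, which for Psma3 (TGACNNNGC) and Nsfl1c (CCAAT) lies on the opposite strand. Ubqln1 had neither motif and is shown as the 60 bases next to its start.
Psma3, chr6:95219689-95219748, plus strand: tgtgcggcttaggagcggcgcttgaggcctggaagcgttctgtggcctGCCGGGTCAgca
Psmb5, chr15:32047405-32047464, minus strand: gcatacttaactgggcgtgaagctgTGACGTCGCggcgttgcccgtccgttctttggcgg
Psmd1, chr9:94157781-94157840, plus strand: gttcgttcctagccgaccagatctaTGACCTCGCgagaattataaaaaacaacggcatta
Vcp, chr5:62025576-62025635, minus strand: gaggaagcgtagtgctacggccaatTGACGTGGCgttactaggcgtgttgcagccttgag
Nsfl1c, chr3:160438648-160438707, plus strand: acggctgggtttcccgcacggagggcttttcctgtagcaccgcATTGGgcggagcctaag
Ubqln1, chr17:6444380-6444439, plus strand: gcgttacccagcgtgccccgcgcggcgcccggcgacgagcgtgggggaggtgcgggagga
The match began 12 bases before the start in Psma3, 60 in Psmb5, 165 in Psmd1 and 223 in Vcp, so its distance differed widely among them. A match of letters is a description of the sequence and says nothing of binding in these rats.

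Levels differed widely by role. Probe sets differ in brightness for reasons other than RNA amount, so levels are given within a cluster and the order across genes is only that of the signals. All 6 shuttle and p97 genes passed the filter, from Nsfl1c at a mean log2 signal of 10.91 to Ubqln2 at 14.14 over the 24 arrays. Ubqln2, the X-linked ubiquilin, was covered by only 15 probes. Of the 7 constitutive beta subunits 5 passed, led by Psmb7, which carries the trypsin-like site, at 14.95, and the lowest, Psmb1, stood at 7.23. Of the 8 alpha genes 5 passed, from Psma2 at 11.91 down to Psma8, the testis form of the ring, at 3.48.

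In the 19S particle, 5 of 6 ATPases and 8 of 11 other subunits passed the filter. Psmc1 was the highest ATPase at 12.76 and Psmc3 the lowest at 9.02, and among the other subunits Psmd7 stood at 12.40 and Psmd8 at 8.61. Of 6 clusters of activators and the inhibitor 3 passed, namely Psme3 at 11.65, Psme4 at 10.79 and Psmf1 at 9.61, while the interferon-inducible activators Psme1 (8.32) and Psme2 did not. The highest cluster named Psme2 is a short one on chromosome 1 with 16 probes, and the gene's own cluster on chromosome 15 is annotated as Psme2.1 at 8.28. Similarly, Psmd10 entered with a 30-probe cluster in place of its 50-probe one (6.82), both on chromosome X, and the Psme3 cluster also names G6pc and Aoc3.

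None of the 4 inducible or thymic beta subunits (Psmb8, Psmb9, Psmb10, Psmb11) passed, with means from 4.81 (Psmb9) to 6.29 (Psmb10), and all were below the 95th percentile of the 1153 negative control rows in each of the 24 arrays. The 7 assembly chaperones, which build the ring and base and then leave, were also all under the filter, from Psmg3 at 5.48 to Psmg1 at 9.06. Psmc3ip, a meiotic recombination cofactor that enters by its name and not by function, was at 5.71. Closest to the limit were Psma4 and Psmd4 just outside it, with CT means of 9.18 and 9.21, and Psmf1 and Psma7 just inside it, with 9.53 and 9.72. Signals of members that passed were not all clear of the negative controls: Psmf1 was above their 95th percentile in 2 arrays, Psma7 and Psmd13 in 3, Psmc5 in 4, Psmd14 in 5, Psmd11 in 7, Psma6 and Psmc4 in 9, Psma3 in 19 and Psmb6 in 22, and the other 22 in all 24.

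**Figure D1:**
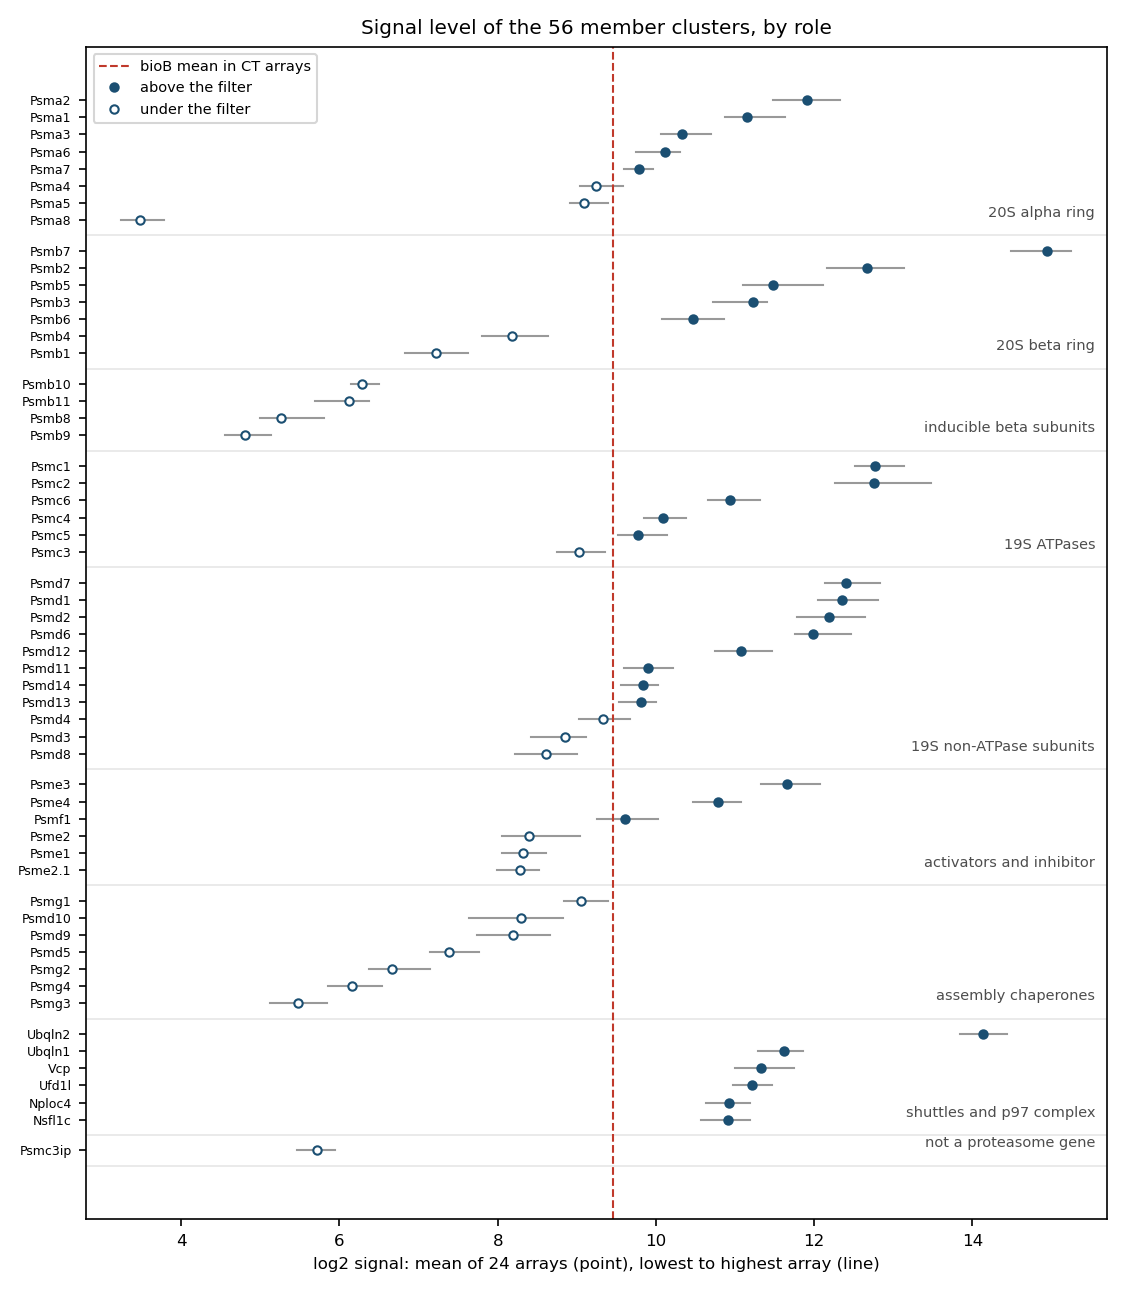
Mean log2 signal over 24 arrays (points) of the 56 member clusters grouped by role, with the range over arrays (lines) and the bioB level of the signal filter at 9.45 (dashed). Shuttles and p97 genes lie wholly to the right of the limit, and the inducible beta subunits and assembly chaperones wholly to its left.

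The first comparison asked how SR rats, which kept taking METH despite shocks, differed from CT. Nsfl1c and Ubqln1, both shuttle-side genes, were higher in SR and were the 2 members called among the 32 tested (limma, Benjamini-Hochberg over all 9044 tested clusters, adjusted p under 0.05), and no member was called lower. Over all tested clusters, 1.99% were called in SRvsCT, 157 higher and 23 lower. A further 15 members had an unadjusted p under 0.05 without passing, all higher, and they included Psmd2 and Psmd12 of the regulatory particle, the catalytic subunit Psmb5 and Vcp itself. In all 17 of 32 members had an unadjusted p under 0.05 in the higher direction and 0 in the lower, beside 15.9% of all tested clusters in the higher direction, and beside 25.7% of the 3686 tested clusters that match 1 RefSeq gene on its own chromosome. In the lower direction these were 487 of the 9044 tested clusters and 38 of the 3686. The median difference over the 32 was 0.17 on the log2 scale, against 0.03 over all tested clusters and 0.11 over those gene-matched clusters.

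Nsfl1c, the p97 cofactor also called p47, had a log2 signal between 11.05 and 11.19 in SR (median 11.13) and between 10.57 and 10.83 in CT (median 10.70). No SR array overlapped the CT range. The difference was 0.41 (95% interval 0.26 to 0.56), which is 1.33-fold, with an adjusted p of 0.0159 in the limma fit. Ubqln1, which carries ubiquitinated proteins to the proteasome, ranged from 11.61 to 11.86 in SR (median 11.77) and from 11.29 to 11.53 in CT (median 11.43), again without overlap. Its difference was 0.33 (0.21 to 0.46), or 1.26-fold, with the same adjusted p of 0.0159. Every SR array lay above every CT array in 3 of the 32 members, the third being Psma7, and in 1.69% of all tested clusters.

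Vcp, the p97 ATPase that extracts marked proteins from complexes and membranes, ranged from 11.15 to 11.74 in SR (median 11.59) and from 11.00 to 11.35 in CT (median 11.27). SR replicate 1 lay within the CT range and the other 5 SR arrays above it, and the difference of 0.30 (0.12 to 0.49) had an adjusted p of 0.0649. The heterodimer that links p97 to ubiquitin was less apart: Nploc4 differed by 0.16 (adjusted p = 0.189) and Ufd1l by 0.14 (adjusted p = 0.367). Ubqln2 gave -0.01 (adjusted p = 0.979), with SR arrays from 13.84 to 14.39 and CT arrays from 13.86 to 14.36. Whether the ubiquilins differed from each other was not tested.

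Among the other 19S subunits, Psmd2, a large scaffold of the base that receives shuttles, was at 12.36 to 12.64 in 5 SR arrays and at 11.94 in SR replicate 1, against 11.81 to 12.28 in CT. The difference was 0.38 (0.16 to 0.59), with an adjusted p of 0.0545. Psmd12, Psmd11 and Psmd6, which belong to the lid, differed by 0.28, 0.21 and 0.19, and Psmd7, partner of the deubiquitinase, by 0.24. The base scaffold Psmd1 differed by 0.24, with SR arrays between 12.28 and 12.80 and CT arrays between 12.05 and 12.40. The deubiquitinase itself, Psmd14, gave 0.11 and Psmd13 -0.02, each with an unadjusted p above 0.05, so the subunits of 1 particle spanned differences from -0.02 to 0.38. Of the 5 ATPases tested, all were higher on average, by 0.13 to 0.37, and Psmc1 (0.26), Psmc2 (0.37) and Psmc5 (0.19) had an unadjusted p under 0.05.

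In the core particle, the largest difference was that of Psmb5, which carries the chymotrypsin-like site. Its SR arrays ranged from 11.39 to 12.11 (median 11.71) and its CT arrays from 11.10 to 11.64 (median 11.33), so the groups overlapped and the difference of 0.37 (0.14 to 0.60) had an adjusted p of 0.0680. The other catalytic subunits differed by 0.19 (Psmb6, caspase-like site) and 0.03 (Psmb7), with adjusted p of 0.364 and 0.914. Of the alpha ring, Psma3 differed by 0.24 (adjusted p = 0.0566), Psma7 by 0.18 (adjusted p = 0.0605) and Psma6 by 0.17 (adjusted p = 0.202). The Psma7 values were tight, 9.83 to 9.96 in SR and 9.60 to 9.81 in CT. Among activators and the inhibitor, Psmf1 gave 0.17, Psme3 0.14 and Psme4 -0.01, and none of these had an unadjusted p under 0.05.

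**Figure D2:**
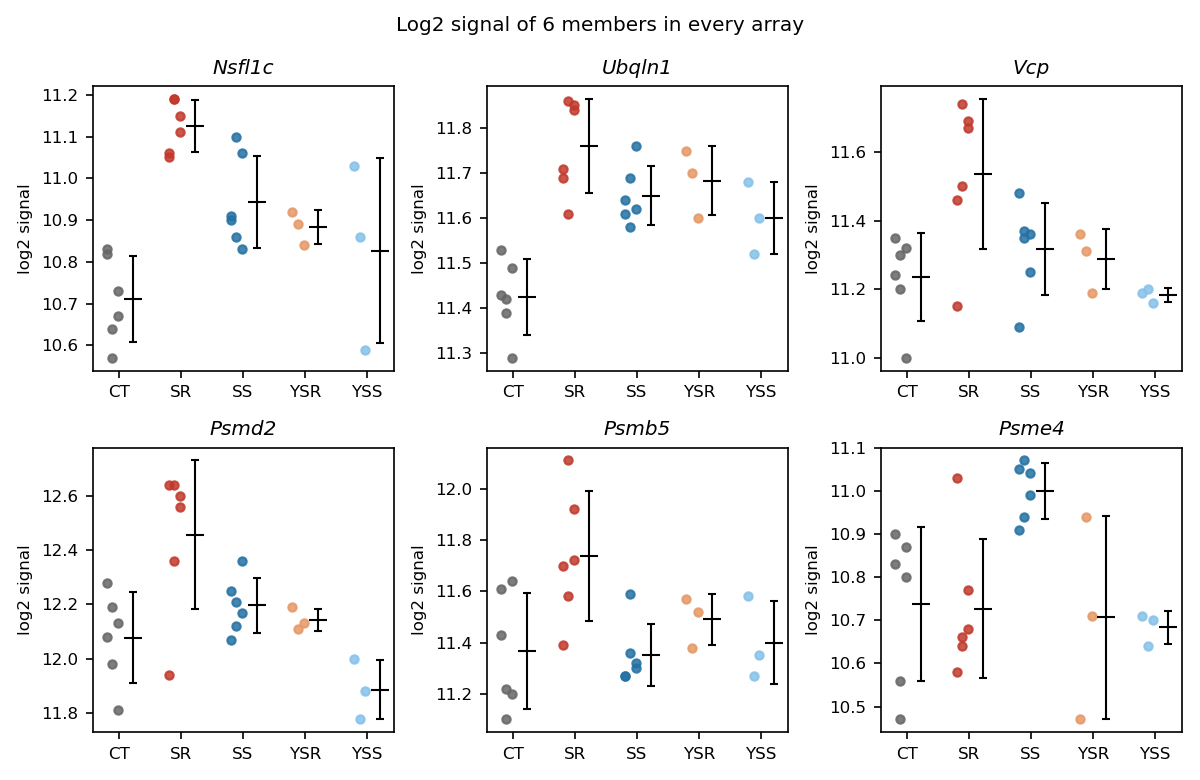
Log2 signal (y axis) of 6 members in every array of the 5 groups (points), with the group mean and SD (bar). SR arrays of Nsfl1c and Ubqln1 lie above all CT arrays, SR replicate 1 is the low SR point of Vcp, Psmd2 and Psmb5, and the SS arrays of Psme4 lie at 10.91 to 11.07.

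The 24 members under the filter were fitted with all 68842 clusters. Psmb4, a constitutive beta subunit, was called, with SR arrays from 8.16 to 8.63 and CT arrays from 7.80 to 8.18, a difference of 0.35 (0.19 to 0.51) and an adjusted p of 0.0490. It was below the 95th percentile of the negative controls in all 24 arrays, so no fold is given, and it was called in 7 of 30 alternatives (adjusted p from 0.0251 to 0.240). In that fit 0.163% of all clusters were called higher. At an unadjusted p under 0.05, 7 of the 24 were higher (Psmb4, Psmd4, Psma5, Psmd5, Psmd10, Psmd3 and Psma4), beside 5.72% of all clusters. Psma8 was lower (-0.16), beside 8934 of the 68842 clusters that were lower at that level. The inducible subunits were not among them.

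The within-group SD of a tested member had a median of 0.14 on the log2 scale, against 0.22 over all tested clusters. The median deviation of the 32 members from their means over 24 arrays was highest in SR replicate 5 (0.29), SR replicate 6 (0.23) and SR replicate 3 (0.15), and it was -0.06 in SR replicate 1 and -0.02 in SR replicate 2. It was lowest in CT replicate 3 (-0.25), followed by CT replicate 5 (-0.13). These arrays also stood at the ends of the array medians over all clusters, where SR replicate 5 was the lowest and CT replicate 3 the highest, and the 95th percentile of the negative controls was 9.63 in SR replicate 5 and 9.64 in SR replicate 6 against 10.21 in CT replicate 3. The part of these array properties in the member differences was not tested. Without SR replicate 5 and CT replicate 3 the median member difference was 0.10 and no member was called. Without SR replicate 3 none was called either, and in both fits 0 of all tested clusters were called. Without SR replicate 1, 13 members were called, beside 1196 of all tested clusters. Without SR replicate 2, 5 were called, beside 574.

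**Figure D3:**
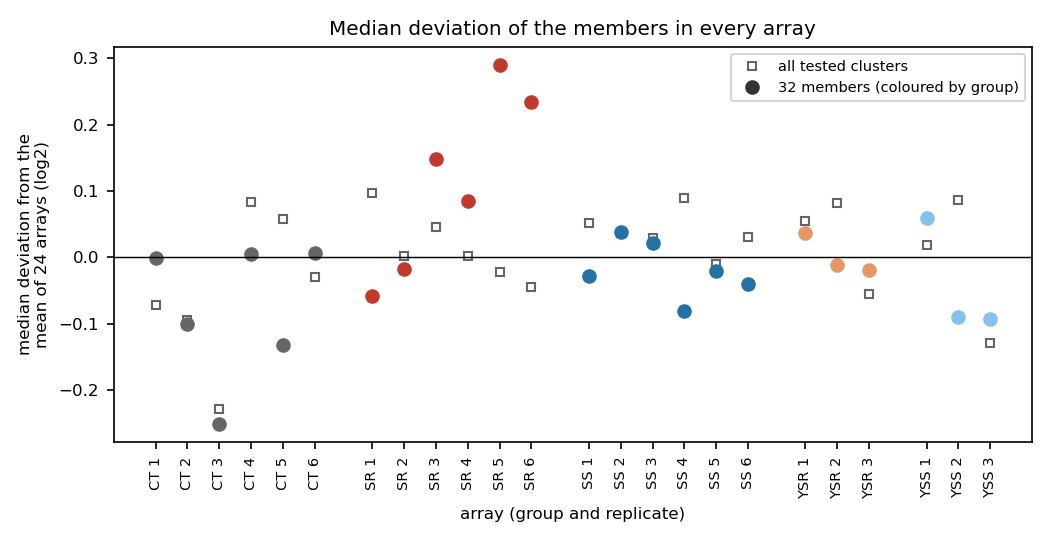
Median deviation from the mean over 24 arrays (y axis, log2) for the 32 tested members (filled circles) and for all tested clusters (open squares) in each array (x axis). SR replicates 3, 5 and 6 stand highest for the members at 0.15 to 0.29, and CT replicate 3 lowest at -0.25, where all tested clusters are low too (-0.23).

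Oligodendrocyte markers were higher in the same comparison without being called. Their summed level, as log2 of the summed signals, ranged from 16.08 to 16.69 in SR (median 16.35) and from 15.87 to 16.29 in CT (median 16.15), and 3 of their 5 tested genes had an unadjusted p under 0.05, all higher. In SS the median was also 16.36. Medium spiny neuron markers ranged from 17.76 to 18.28 in SR (median 18.00), within the CT range of 17.69 to 18.30 (median 17.74). Of their 11 genes 1, Gad1, had an unadjusted p under 0.05. The part of cell composition in the member differences was not tested.

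SS rats, which reduced their intake, showed smaller differences from CT, and no member was called. Over all tested clusters 0.0% were called in SSvsCT, and 4 of 32 members (Ubqln1, Nsfl1c, Psme4 and Psma3) had an unadjusted p under 0.05, all higher, beside 5.97% of all tested clusters in that direction. Ubqln1 was at 11.58 to 11.76 in SS, a difference of 0.22 (0.10 to 0.35, adjusted p = 0.381). Nsfl1c was at 10.83 to 11.10 in SS, with a difference of 0.23 (0.08 to 0.38, adjusted p = 0.454). SR and SS were each compared with the same CT arrays. The median member difference was 0.05, against 0.07 over all tested and 0.04 over gene-matched clusters, and it changed sign in 2 alternatives (-0.02 to 0.07). Of the 5 tested oligodendrocyte markers 2 had an unadjusted p under 0.05, both higher. Of the 3 tested cortical glutamatergic markers 1 had an unadjusted p under 0.05, lower, and their median difference was -0.34. The part of either cell type in the member differences was not tested.

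Psme4, a large ATP-independent cap of the core also called PA200, had its highest group mean in SS. The same held for Psmd13, with means of 9.88 in SS and 9.74 in SR, and under the filter for Psme1, Psme2.1 and Psmg1. Psme4 was at 10.91 to 11.07 in SS, against 10.47 to 10.90 in CT and 10.64 to 10.71 in YSS. In SR it was at 10.58 to 10.77 in 5 arrays and at 11.03 in replicate 4, and in YSR it ranged from 10.47 to 10.94. Psme4 was 0.26 higher in SSvsCT (0.08 to 0.45, adjusted p = 0.514) and 0.32 higher in SSvsYSS (0.09 to 0.55, adjusted p = 0.770), so none of its comparisons was called.

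The direct comparison SRvsSS, which asks what separates rats that kept taking METH from those that cut their intake, called 0.0% of all tested clusters and no member. At an unadjusted p under 0.05, 13 of 32 members were higher in SR, beside 5.76% of all tested clusters and 11.0% of gene-matched clusters, and 1, Psme4, was lower (-0.27, -0.46 to -0.09), beside 6.77% lower. The smallest adjusted p was 0.378. The 13 included 6 of the 8 tested 19S subunits that are not ATPases and 1 of 5 beta subunits, Psmb5. Psmb5 was at 11.27 to 11.36 in 5 SS arrays and at 11.59 in SS replicate 5, against 11.39 to 12.11 in SR, a difference of 0.39 (0.15 to 0.62). Psmd1 was at 12.28 to 12.80 in SR and at 12.08 to 12.33 in SS, with a difference of 0.27 (0.10 to 0.44). Ubqln1 was not among the 13, with a difference of 0.11 (-0.02 to 0.23). The median member difference was 0.14, against -0.04 over all tested clusters and 0.06 over gene-matched clusters.

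**Figure D4:**
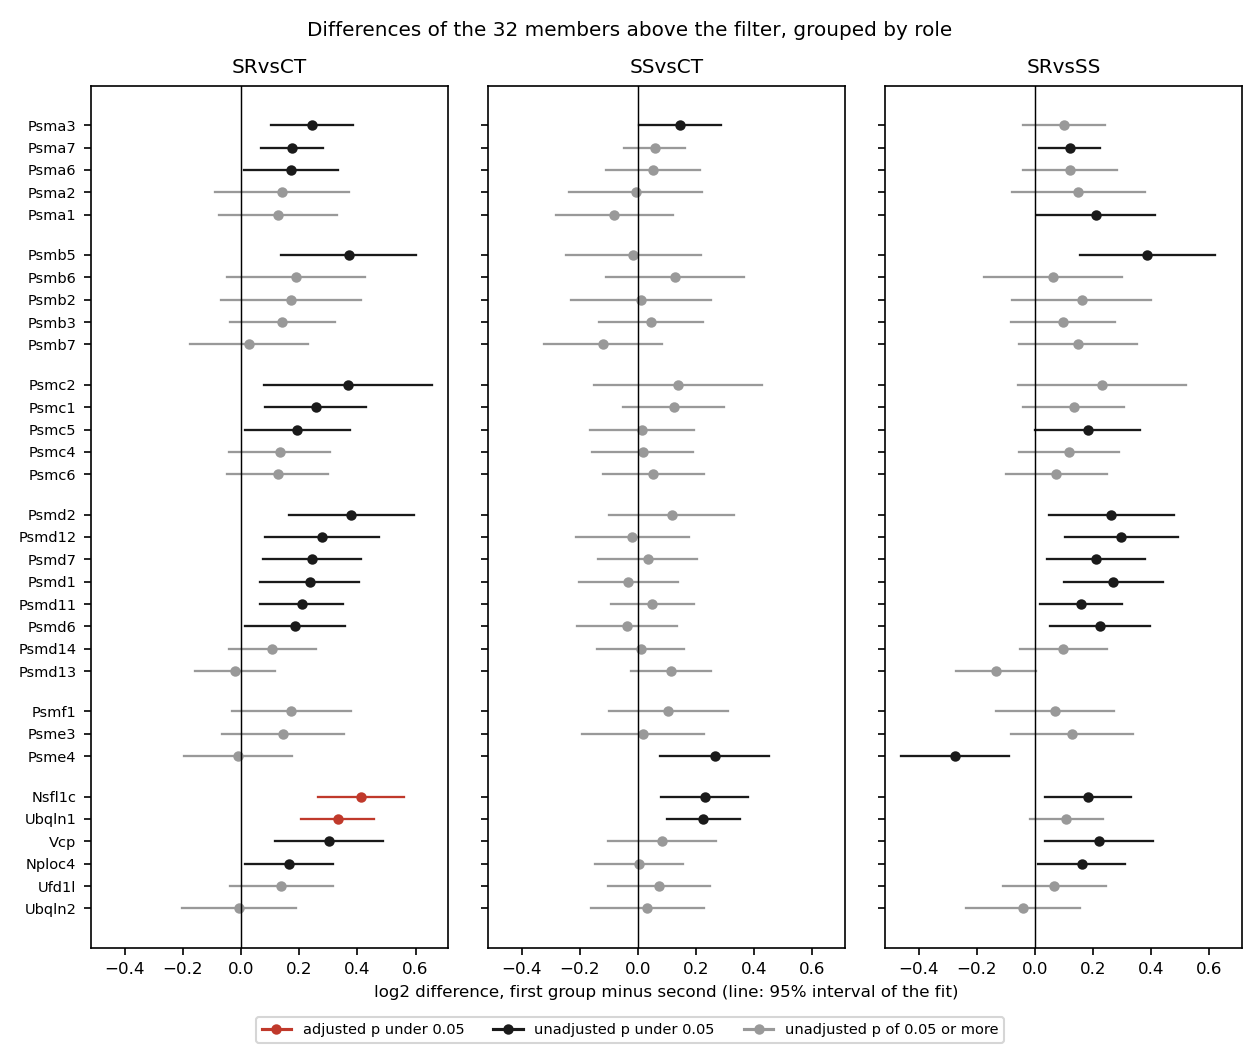
Log2 differences (points) with 95% intervals (lines) of the 32 members above the filter in SRvsCT, SSvsCT and SRvsSS, grouped by role. Nsfl1c and Ubqln1 in SRvsCT are the called differences (red), most SRvsCT points lie above 0 with a median of 0.17, and Psme4 is the member below 0 at an unadjusted p under 0.05 in SRvsSS.

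Yoked rats received shocks and saline, with 3 arrays a group. Their labels lack the mark (2) that CT, SR and SS carry, so whatever it stands for cannot be told apart from yoking in any comparison of a yoked group with the others. No member and 0.0% of tested clusters were called in YSRvsCT, YSSvsCT or YSRvsYSS. Ubqln1 was the member with an unadjusted p under 0.05 in both YSRvsCT and YSSvsCT, beside 2.65% and 2.19% of all tested clusters that were higher at that level. Its YSR arrays were at 11.60, 11.70 and 11.75, against 11.29 to 11.53 in CT, a difference of 0.26 (0.10 to 0.41, adjusted p = 0.999). Its YSS arrays were at 11.52, 11.60 and 11.68, a difference of 0.18 (0.02 to 0.33, adjusted p = 1). CT thus had the lowest Ubqln1 of the 5 groups, and the means of the others, from 11.60 in YSS to 11.76 in SR, lay within overlapping ranges. Nsfl1c was at 10.84, 10.89 and 10.92 in YSR and at 10.59, 10.86 and 11.03 in YSS. In YSRvsCT, Psmb2, a beta subunit, gave 0.28 (-0.01 to 0.57), and in YSSvsCT Psmb3 gave 0.18 (-0.04 to 0.40). In YSRvsYSS no member had an unadjusted p under 0.05, beside 0.641% of tested clusters that were higher, with the smallest p for Psmd2 (0.26, -0.04 to 0.56) and Psmd11 (0.11, -0.09 to 0.31).

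Set against their own yoked rats, METH-taking groups again gave no calls, as did 0.0% of all tested clusters in SRvsYSR and SSvsYSS. In SRvsYSR, Nsfl1c, Psmd2, Vcp and Psmc5 had an unadjusted p under 0.05, all higher, beside 3.54% of all tested clusters. Nsfl1c was at 11.05 to 11.19 in SR and at 10.84 to 10.92 in YSR, with a difference of 0.24 (0.06 to 0.42, adjusted p = 0.699). In SSvsYSS, Psme4 and Psmd2 were the 2 such members, beside 3.86% of all tested clusters. Psmd2 was at 11.78 and 11.88 in 2 YSS arrays, and the highest YSS array too lay below all 6 SS arrays (12.07 to 12.36), a difference of 0.31 (0.05 to 0.57, adjusted p = 0.822). The median member difference in SRvsYSR was 0.11, against -0.05 over all tested clusters and 0.05 over gene-matched ones. In SSvsYSS it was -0.01, against 0.05 over all tested clusters and -0.003 over gene-matched ones. This member median changed sign in 2 alternatives (-0.04 to 0.04). Of the 5 tested oligodendrocyte markers, 4 had an unadjusted p under 0.05 in SSvsYSS (median difference 0.62) and 2 in SRvsYSR (0.38), all higher, and their part in the member differences was not tested. Whether SRvsYSR and SSvsYSS differed from each other was tested as (SR-YSR)-(SS-YSS): 0 of 32 members had an unadjusted p under 0.05, beside 2.5% of all tested clusters, and the smallest p was that of Psme4, 0.0653 in the limma fit (difference -0.30, -0.62 to 0.02).

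The F test over the 5 groups called no member and 0.0111% of tested clusters, and 11 of 32 members had an unadjusted p under 0.05, beside 10.8% of all tested clusters. Nsfl1c and Ubqln1 had the smallest adjusted p, 0.0955 and 0.106.

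Genes that work beside these members were taken from a list of ubiquitin, its activating, conjugating and ligating enzymes, deubiquitinases, further shuttles, p97 adaptors and proteasome partners, of which 65 were placed on a cluster and 39 passed the filter. In SRvsCT 1 of the 39 was called, Ube2h, a conjugating enzyme, at 1.34-fold higher (0.42, adjusted p = 0.0253), and 15 of 39 had an unadjusted p under 0.05 in the higher direction and 0 in the lower (15.9% of all tested and 25.7% of gene-matched clusters were higher at that level). Lower at that level were 487 of 9044 tested and 38 of 3686 gene-matched clusters. The median difference of the 39 was 0.12, close to the 0.11 over gene-matched clusters. Pomp, the chaperone that matures the core particle, gave 0.42 (adjusted p = 0.0572), the ubiquitin-activating enzyme Uba1 0.27 (adjusted p = 0.0579) and the p97 adaptor Ubxn7 0.20 (adjusted p = 0.0605). The ubiquitin precursor genes Ubb and Rps27a gave 0.24 and 0.25 and were not called. Under the filter, in the limma fit over all clusters, Usp5, which disassembles free ubiquitin chains, was called at 0.34. Nfe2l1, the factor named above, was called there at 0.26 (adjusted p = 0.0483 for both), beside 0.163% of all clusters called higher. No other listed gene under the filter was called in SRvsCT, and the related Nfe2l2 gave 0.002 (adjusted p = 0.994). Mean signals over all arrays were 8.36 (Usp5), 8.09 (Nfe2l1) and 7.07 (Nfe2l2). All these means lay under the 95th percentile of the negative controls, which was lowest in SR replicate 5, at 9.63. In SRvsSS none of the 39 was called, and 3 had an unadjusted p under 0.05, all higher, beside 5.76% of all tested and 11.0% of gene-matched clusters.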

How the data were processed

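NAc RNA from 24 rats was hybridised to the Affymetrix Rat Transcriptome Array 1.0. The authors deposited log2 signals per transcript cluster, per the labels made with Affymetrix Expression Console, with no version or summarization settings stated. The genome build of the clusters is not stated either, so none of their coordinates are printed. The deposited table of group averages and the authors' own comparisons was used for annotation only: its fold changes and p-values are not reported. Its group averages correlated with the array means at 0.999587 or more, and no array pair held identical values.

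Members, gene lists, named genes and tests were chosen with earlier results of these data known. Groups were compared on the log2 values in 1 limma fit of 5 groups (limma 3.58.1, R 4.3.3, lmFit and eBayes) over 9044 clusters above bioB, with Benjamini-Hochberg adjustment, called under 0.05. Members under that level were read from a fit over all 68842 clusters. Intervals are 95% and from the fit. The fit was tested on simulated data. Named were called members, the 2 with the smallest p in each of 8 comparisons and the highest and lowest of each role, beside others chosen after their values were seen. Alternatives were no filter, equal array medians, quantile normalization, array weights, only the groups compared, the replicate block, 1 cluster per gene, the mean of a symbol's clusters and left-out arrays. Promoters were searched with Python 3.11.15.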

Additional observations from a re-analysis of the deposited data

Results flagged for a closer look

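In 9 of the 78 groups of 6 arrays checked for the 26 named members, the highest or lowest array lay far from the rest, judged by its gap relative to the group's range; chance alone gives about 1 in 20. In CT, replicate 4 was high for Psmc1 (12.84, the others 12.52 to 12.64) and Psme2.1 (8.49, the others 8.14 to 8.26) and low for Psmc3ip (5.47, the others 5.63 to 5.71), and replicate 3 was low for Psmb3 (10.72, the others 11.09 to 11.30). In SS, replicate 4 was low for Psme3 (11.33, the others 11.69 to 11.75) and Psmd1 (12.08, the others 12.24 to 12.33), replicate 5 was high for Psmb5 (11.59, the others 11.27 to 11.36) and replicate 3 high for Psmb1 (7.34, the others 7.11 to 7.20). In SR, replicate 5 was high for Psmb10 (6.50, the others 6.14 to 6.21).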

How the results depend on the processing

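The number of members called in SRvsCT was 2 as reported, beside 180 of all tested clusters. It was 14 with array weights, beside 1250 of all tested clusters, and 11 with 1 cluster per gene, beside 398 of that smaller set. It was 0 without SR replicate 5 and CT replicate 3 together and 0 with only the groups compared in the fit, beside 0 of all in both. Leaving out 1 array gave 0 (without SR replicate 3) to 13 (without SR replicate 1), and over all tested clusters calls went from 180 to 0 and 1196 in those fits. Member counts thus rose and fell with the counts over all clusters. In SRvsSS, 0 became 10 with array weights, beside 751 of all tested clusters. It was 0 to 5 over left-out arrays (5 without SR replicate 1, beside 298 of all). In SRvsYSR, 0 became 1 with array weights, beside 54 of all tested clusters. The F test, 0 as reported, gave 7 with array weights and 2 with 1 cluster per gene, beside 496 and 34 of all clusters in those fits. It gave 0 to 4 over left-out arrays (4 without SR replicate 1, beside 205 of all). All other counts of calls kept 0 under each alternative, the contrast (SR-YSR)-(SS-YSS) among them, whose alternatives were added after seeing the data. Nsfl1c and Ubqln1 were called in 30 of 33 alternatives (adjusted p from 0.00241 to 0.127 and from 0.00225 to 0.162) and kept their direction in all 33, while Psmb4 was called in 7 of 30. The median member difference in SRvsCT ran from 0.10 to 0.21, while those in SSvsCT (-0.02 to 0.07), YSSvsCT (-0.02 to 0.07) and SSvsYSS (-0.04 to 0.04) changed sign in 2, 3 and 2 alternatives. The replicate block left 2 members called in SRvsCT; same-numbered arrays did not deviate together (r from -0.55 to 0.57 over 8 comparisons, none with every pair over 0.1), so the numbers were not treated as pairs. Yoked groups hold 3 arrays each, and signals under the negative controls limit what the dim members can show.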
